A study of Mus musculus with 12 samples.

Results

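The ADAMTS and matrix metalloproteinase (MMP) genes Adamts3, Adamts4, Adamts8, Adamts15, Adamts16, Mmp9, Mmp10 and Mmp16 were described in the immature mouse oviduct with and without the estrogen receptor ESR1. They are 8 of the 1821 genes that could be followed in all 12 arrays of the study by a matching gene symbol. All 8 genes were taken by symbol from a list that the study itself selected on measured values of these arrays, so every difference given here is a description and not independent evidence. With 3 arrays per group, the signal of 7 of the 8 genes was higher in PMSG-treated ESR1KO than PMSG-treated WT oviducts, by 2.22-fold for Mmp16 to 19.8-fold for Adamts16. Adamts4 differed in the other direction, at a 4.50-fold lower signal in PMSG-treated ESR1KO oviducts.

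ADAMTS proteins are secreted zinc proteases that bind the matrix through thrombospondin repeats, and MMPs are secreted or membrane-anchored zinc proteases. Both families cut collagens, proteoglycans and glycoproteins outside the cell, are made as inactive precursors, and are held in check by tissue inhibitors of metalloproteinases (TIMPs). In the female reproductive tract these proteases are known for matrix turnover during follicle rupture, cyclic remodeling and growth of the tract. ESR1 is the nuclear receptor through which estradiol regulates most of its target genes there.

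The study compared 4 groups of whole oviducts, with 3 arrays per group and oviducts of 3 to 4 mice pooled for each array. ESR1KO mice carried ESR1 deleted on both chromosomes (ESR1-/-), and WT mice were siblings with 1 floxed and 1 deleted copy of ESR1 (ESR1 flox/-). Mice of either genotype could also carry Zp3Cre, a Cre transgene active in the oocyte, and all were on a C57BL/6 background. Both PMSG-treated groups were given 5 IU of PMSG on day 23 of life, and their oviducts were taken 48 h after it. PMSG, a gonadotropin from mare serum, makes ovarian follicles grow and secrete estradiol. Oviducts of untreated ESR1KO and WT mice were taken on day 23. PMSG-treated mice were therefore older, and PMSG and age cannot be told apart. In pooled whole oviducts, fewer cells of a type and less RNA per cell cannot be told apart either.

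Values are log2 expression signals of Affymetrix Mouse Genome arrays, on which a difference of 1 is a 2-fold difference and signals under 4 are taken as near background. Array medians lay between 5.63 and 5.75. The probe set for Esr1 read 10.11, 10.62 and 10.56 in PMSG-treated ESR1KO oviducts, 12.62, 12.82 and 12.21 in PMSG-treated WT, 10.42, 12.13 and 11.05 in ESR1KO and 12.94, 12.92 and 13.05 in WT oviducts. Replicate 2 of ESR1KO thus lay nearer to WT than any other ESR1KO array, and its values are pointed out where they stand apart for a protease gene. PMSG-treated WT replicate 3 also stood apart: over all rows it correlated at r of 0.959 to 0.974 with the other 8 of the 9 arrays whose rows share an order, against 0.978 to 0.997 among those 8. In untreated ESR1KO oviducts the ciliated and secretory epithelial markers of the oviduct were present, with all 8 ciliated and all 7 secretory markers on the array at a mean signal of at least 4, among them Foxj1 (11.69) and Ovgp1 (15.94).

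The promoters are shown for the genes whose sequence was found in the RefSeq promoters of GRCm38.p6, since Mmp10 and Adamts3 stand for different kinds of promoter and Mmp10 shares its layout with 1 of 2 windows of Mmp7, a gene further along the same cluster. Each window holds 250 bases before the start site and 50 after it, in the direction of transcription, and 2 of the 8 genes had one. The Mmp10 window lies at chr9:7502092-7502391 on the plus strand. Capitals mark an AP-1 motif (TGANTCA, both strands), an estrogen response element half-site (GGTCA, both strands), a TATA box (TATAAA, sense strand only) and, in Adamts3, a GC box (GGGCGG, both strands). None of these motifs overlapped in the windows printed.
Mmp10: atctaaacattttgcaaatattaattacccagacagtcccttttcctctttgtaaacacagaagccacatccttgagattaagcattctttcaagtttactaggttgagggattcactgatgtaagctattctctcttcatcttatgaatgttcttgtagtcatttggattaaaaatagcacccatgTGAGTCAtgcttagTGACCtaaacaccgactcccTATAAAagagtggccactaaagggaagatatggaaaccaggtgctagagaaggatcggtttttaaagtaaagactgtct
The last 80 bases before the start site are printed for Mmp7, whose 300-base window lies at chr9:7691840-7692139 on the plus strand, and for Adamts3, whose window lies at chr5:89883285-89883584 on the minus strand. The Adamts3 window lies wholly inside the annotated gene (chr5:89673841-89883668), so its start site is downstream of the outermost annotated start.
Mmp7: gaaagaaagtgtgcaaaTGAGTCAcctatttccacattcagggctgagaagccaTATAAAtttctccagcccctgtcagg
Adamts3: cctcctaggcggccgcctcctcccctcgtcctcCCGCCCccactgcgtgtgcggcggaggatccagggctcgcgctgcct

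The AP-1 motif TGAGTCA stood at bases -63 to -57 in both Mmp10 and Mmp7, and the TATA box at -29 to -24 in Mmp10 and at -26 to -21 in Mmp7. Of 10 MMP genes on chromosome 9 with a RefSeq promoter, 8 held both an AP-1 motif and a TATA box, whereas 0 of 8 MMP genes on other chromosomes held an AP-1 motif. A gene was counted if any of its windows held the motif. A second RefSeq window of Mmp7, at chr9:7692091-7692390, held neither motif, as did another window of Mmp12, at chr9:7344147-7344446. Among all 32851 RefSeq promoters, counted by window and not by gene, 7.81% held an AP-1 motif and 8.32% a TATA box. The estrogen response element half-site in Mmp10 lay at -49 to -45, and 40.5% of all promoters held at least 1 such half-site. The Adamts3 window was of the GC-rich kind, at 77.3% G and C with 41 CpG dinucleotides, against 37.7% and 2 in Mmp10 and a median of 52.7% over all promoters. Its only marked motif was a GC box at -47 to -42, a motif found in 35.7% of promoters. A match of letters is not a binding site, and none of these windows was measured for binding in the study.

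Adamts16 encodes a secreted ADAMTS protease that can cleave fibronectin, and its gene lies at chr13:70727798-70841845. Its signal was 9.44, 9.82 and 9.89 in PMSG-treated ESR1KO oviducts, 4.88, 6.24 and 5.11 in PMSG-treated WT, 9.78, 9.07 and 9.85 in ESR1KO and 5.38, 5.54 and 6.38 in WT oviducts. The arrays fell into a high and a low set by genotype, with no ESR1KO array of either treatment below 9.07 and no WT array above 6.38. The means were 9.72 ± 0.24 in PMSG-treated ESR1KO against 5.41 ± 0.73 in PMSG-treated WT oviducts (SD, n = 3 each), a log2 difference of 4.31 (SE 0.39). Without PMSG they were 9.57 ± 0.43 in ESR1KO and 5.77 ± 0.54 in WT oviducts (SD, n = 3 each), a log2 difference of 3.80 (SE 0.38), or 13.9-fold. Within a genotype the PMSG-treated and untreated arrays overlapped, with log2 differences of 0.15 (SE 0.38) for PMSG-treated ESR1KO against ESR1KO and -0.36 (SE 0.39) for PMSG-treated WT against WT. Replicate 2 was the lowest of the untreated ESR1KO arrays, and without it the difference between PMSG-treated ESR1KO and ESR1KO changed sign, to -0.093.

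Adamts4 encodes aggrecanase 1, which cuts aggrecan and versican, and lies at chr1:171250129-171262267. Its signal was 5.72, 6.43 and 5.84 in PMSG-treated ESR1KO oviducts, 8.83, 8.26 and 7.42 in PMSG-treated WT, 5.54, 5.27 and 4.58 in ESR1KO and 7.46, 8.28 and 7.35 in WT oviducts. It was the 1 gene of the 8 with the lower signal in both ESR1KO groups, and no ESR1KO array reached the lowest WT array. The log2 difference was -2.17 (SE 0.39) between PMSG-treated ESR1KO and PMSG-treated WT and -2.57 (SE 0.40) between ESR1KO and WT oviducts, the second of these a 5.92-fold lower signal. All PMSG-treated ESR1KO arrays were above the ESR1KO arrays, by a log2 difference of 0.87 (SE 0.40), while PMSG-treated WT and WT arrays overlapped.

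**Figure D1:**
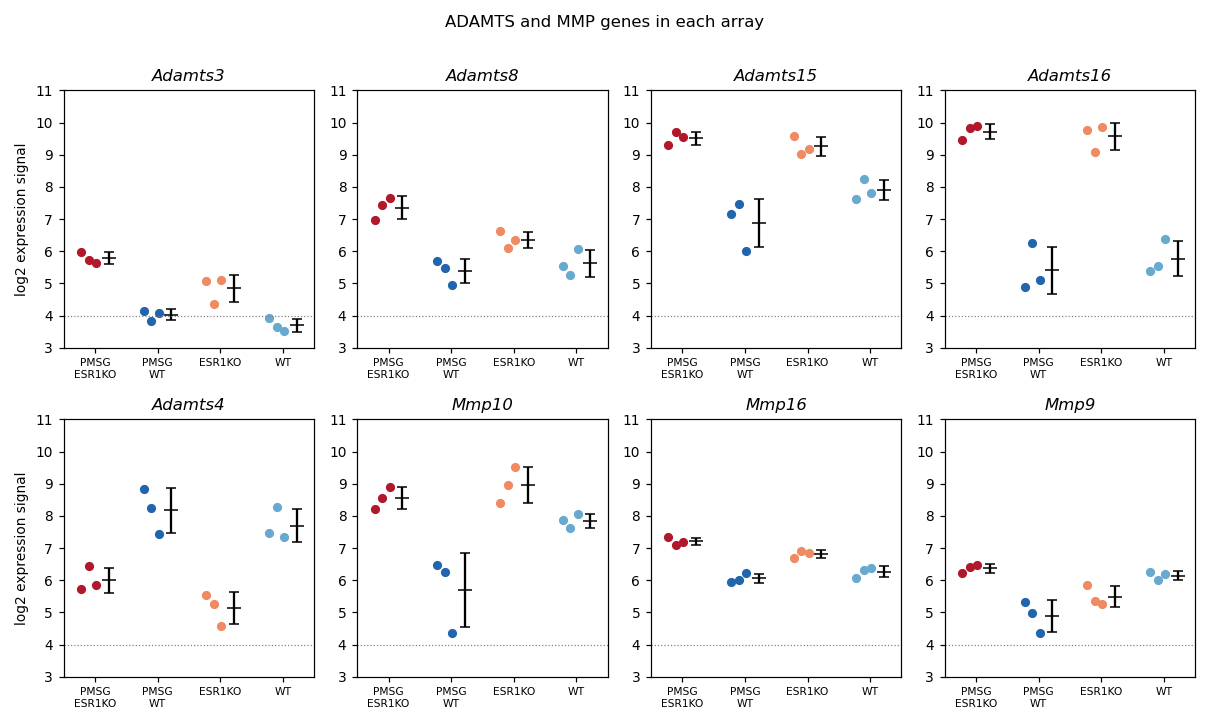
Log2 expression signal of the 8 genes in each array, with a panel for each gene and the groups along the horizontal axis in the order PMSG-treated ESR1KO, PMSG-treated WT, ESR1KO and WT. Points are the 3 arrays of a group in the order of their replicate numbers, bars beside them the mean and SD, and the dotted line a signal of 4. Adamts16 splits by genotype at 9.07 and above against 6.38 and below, Adamts4 the other way round, and Mmp9 is the gene whose genotype order turns with PMSG.

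Adamts15 and Mmp10 shared another arrangement of the groups, with all PMSG-treated WT arrays below all other arrays. The genes were grouped in this way after their values were seen. Adamts15, a proteoglycan-cleaving protease, read 9.30, 9.70 and 9.54 in PMSG-treated ESR1KO oviducts, 7.14, 7.45 and 6.02 in PMSG-treated WT, 9.58, 9.01 and 9.17 in ESR1KO and 7.63, 8.25 and 7.82 in WT oviducts. Mmp10, or stromelysin 2, which cuts many matrix proteins and activates other MMP precursors, lies at chr9:7502342-7510242 and read 8.22, 8.55 and 8.88 in PMSG-treated ESR1KO oviducts, 6.46, 6.24 and 4.36 in PMSG-treated WT, 8.41, 8.95 and 9.51 in ESR1KO and 7.86, 7.62 and 8.04 in WT oviducts. For both genes the order from high to low was an ESR1KO pair whose arrays overlapped, then WT, then PMSG-treated WT. There was no overlap between the last 2 or between either of them and ESR1KO. Of located rows, 28.7% had all PMSG-treated WT arrays below all WT arrays.

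The log2 difference between PMSG-treated ESR1KO and PMSG-treated WT was 2.64 (SE 0.35) for Adamts15 and 2.86 (SE 0.49) for Mmp10. Without PMSG-treated WT replicate 3 it was 2.22 for Adamts15 and 2.20 for Mmp10, both still called. Between ESR1KO and WT it was 1.36 (SE 0.33) for Adamts15 and 1.11 (SE 0.48) for Mmp10. The log2 difference of PMSG-treated WT from WT was -1.03 (SE 0.35) for Adamts15 and -2.15 (SE 0.49) for Mmp10, neither of which passed the threshold of a call. PMSG-treated WT replicate 3 held the lowest value for both, at 6.02 and 4.36. Without that array the difference of PMSG-treated WT from WT was -0.60 for Adamts15 and -1.49 for Mmp10, and Mmp10 then passed the threshold (limma, adjusted p = 0.0218).

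Adamts8, Adamts3 and Mmp16 had all PMSG-treated ESR1KO arrays above all other arrays. The mean was also highest in PMSG-treated ESR1KO oviducts for Adamts15, Adamts16 and Mmp9, but with overlap. Adamts8, a secreted protease known to inhibit growth of blood vessels, read 6.98, 7.44 and 7.65 in PMSG-treated ESR1KO oviducts, 5.71, 5.48 and 4.96 in PMSG-treated WT, 6.62, 6.11 and 6.34 in ESR1KO and 5.55, 5.24 and 6.07 in WT oviducts. Its PMSG-treated ESR1KO arrays were above all others, its ESR1KO arrays next, and its PMSG-treated WT and WT arrays overlapped. The log2 difference was 1.98 (SE 0.30) between PMSG-treated ESR1KO and PMSG-treated WT, 0.74 (SE 0.29) between ESR1KO and WT and 1.00 (SE 0.29) between PMSG-treated ESR1KO and ESR1KO oviducts. Adamts8 at chr9:30942562-30963838 and Adamts15 at chr9:30899155-30922452 are neighbours, with 20.1 kb and 0 annotated genes between them, and Pearson's r between them over the 12 arrays was 0.85.

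Adamts3 encodes an enzyme that trims the amino end of procollagens and takes part in activating the lymphatic growth factor VEGFC, and lies at chr5:89673841-89883668. It read 5.98, 5.74 and 5.63 in PMSG-treated ESR1KO oviducts, 4.15, 3.83 and 4.07 in PMSG-treated WT, 5.07, 4.36 and 5.12 in ESR1KO and 3.92, 3.66 and 3.52 in WT oviducts. All WT arrays and 1 PMSG-treated WT array were under 4, where background correction compresses differences, so the fold against these groups is uncertain. The log2 difference was 1.76 (SE 0.19) between PMSG-treated ESR1KO and PMSG-treated WT, 1.15 (SE 0.23) between ESR1KO and WT and 0.93 (SE 0.23) between PMSG-treated ESR1KO and ESR1KO oviducts. ESR1KO replicate 2 was the lowest of its group here too, and without it the difference between ESR1KO and WT was 1.40.

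Mmp16 encodes the membrane-anchored MT3-MMP, which activates the precursor of MMP2, and lies at chr4:17853072-18117479. It read 7.34, 7.10 and 7.18 in PMSG-treated ESR1KO oviducts, 5.95, 6.00 and 6.22 in PMSG-treated WT, 6.68, 6.91 and 6.85 in ESR1KO and 6.07, 6.33 and 6.39 in WT oviducts. Its arrays lay close together within groups, with an SD of 0.12 to 0.17, and among the 7 genes higher in PMSG-treated ESR1KO than PMSG-treated WT oviducts its difference was the smallest. The log2 difference was 1.15 (SE 0.18) between PMSG-treated ESR1KO and PMSG-treated WT and 0.55 (SE 0.17) between ESR1KO and WT, or 1.46-fold.

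Mmp9 encodes gelatinase B, which degrades the type IV collagen of basement membranes and is also stored in the granules of neutrophils. The gene lies at chr2:164940326-164955850. It read 6.22, 6.40 and 6.49 in PMSG-treated ESR1KO oviducts, 5.32, 4.97 and 4.35 in PMSG-treated WT, 5.85, 5.35 and 5.26 in ESR1KO and 6.24, 5.99 and 6.19 in WT oviducts. The direction of the genotype difference turned with PMSG: PMSG-treated ESR1KO was above PMSG-treated WT by a log2 difference of 1.49 (SE 0.26), whereas the difference of ESR1KO from WT was -0.65 (SE 0.26). Seen by PMSG, all PMSG-treated ESR1KO arrays were above all ESR1KO arrays, at 0.88 (SE 0.26), and all PMSG-treated WT arrays were below all WT arrays, at -1.26 (SE 0.26). PMSG-treated WT replicate 3 held the lowest Mmp9 value, 4.35. Without that array the difference of PMSG-treated WT from WT was -0.997, and that of PMSG-treated ESR1KO from PMSG-treated WT was 1.23. The interaction, the PMSG difference in ESR1KO minus that in WT, was 2.14 (SE 0.37, unadjusted p = 0.00013 in limma). It missed the threshold after adjustment for all rows of the table, at an upper bound of 0.145 for the adjusted p.

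**Figure D2:**
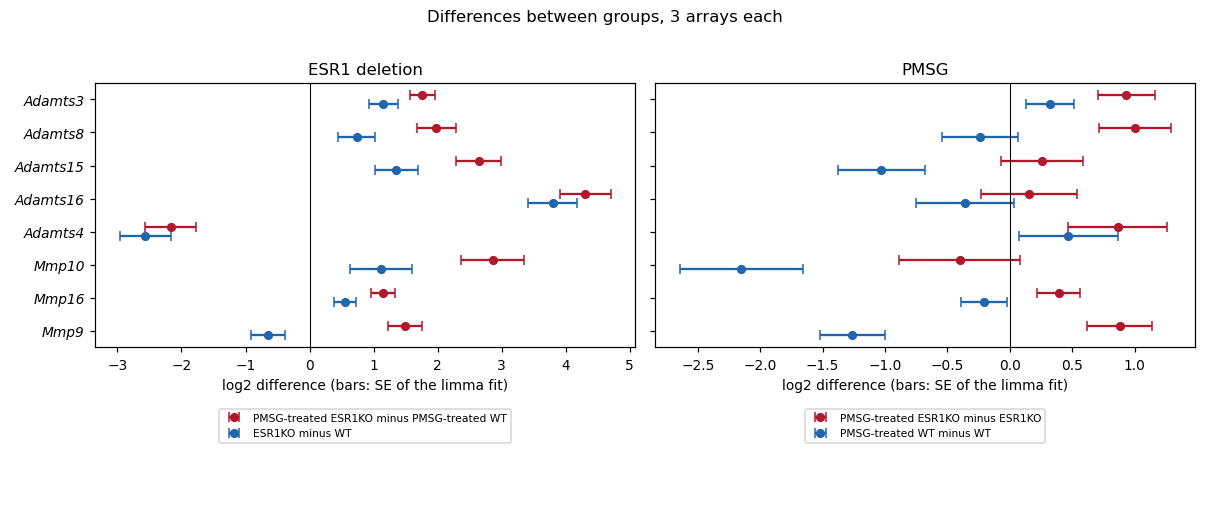
Log2 differences of the 8 genes with the SE of the limma fit, genes down the page and the difference along the horizontal axis. The left panel sets PMSG-treated ESR1KO against PMSG-treated WT (red) and ESR1KO against WT (blue), and the right panel PMSG-treated ESR1KO against ESR1KO (red) and PMSG-treated WT against WT (blue), with 3 arrays per group. Mmp9 is the gene with red and blue points on opposite sides of 0 in the left panel, at 1.49 and -0.65.

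Calls needed at least a 2-fold difference and, in limma, an adjusted p under 0.05. In contrasts with untreated ESR1KO the adjusted p is an upper bound. Calls there are stricter, and counts of calls cannot be compared between contrasts. Between PMSG-treated ESR1KO and PMSG-treated WT, 7 of the 8 genes were called higher and 1 was called lower. Of all rows, 2.76% were called higher and 1.72% lower, and among the 1997 rows of the selected list that could be located 28.3% were called higher and 20.0% lower. The median log2 difference was 1.87 over the 8 genes, 0.36 over the located rows and 0.01 over all rows. Because that list was selected by these same contrasts, nothing is read from the excess. At the same threshold, an unmoderated model of the 9 arrays, with the ordinary residual variance of each row, called 6 of the 8, the calls of Adamts4 (adjusted p = 0.0582) and Mmp10 (0.0538) being lost.

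Between ESR1KO and WT, 2 of the 8 genes were called higher (Adamts16 and Adamts3) and 1 lower (Adamts4), against 9.11% of located rows called higher and 9.01% called lower. All 8 genes had non-overlapping ESR1KO and WT arrays, 6 higher and 2 lower in ESR1KO, as did 78.5% of the located rows (42.7% higher and 35.8% lower). The median log2 difference was 0.93 over the 8 genes and 0.15 over the located rows. The call of Adamts3, at an upper bound of 0.0428 for the adjusted p, was lost in 9 of the 12 fits that left out 1 array (bounds of 0.0621 to 0.235). It held without ESR1KO replicate 2, PMSG-treated ESR1KO replicate 1 or PMSG-treated WT replicate 3. That of Adamts4 was lost without ESR1KO replicate 3 (0.0639) or WT replicate 2 (0.0747), whereas Adamts16 was called in all 12 fits.

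For PMSG the counts were 0. Between PMSG-treated WT and WT 0 of the 8 genes were called in limma, 3 were at an unadjusted p under 0.05 (Adamts15, Mmp9 and Mmp10, all lower in PMSG-treated WT) and 0 were called in the unmoderated model. The share called was 0.251% of all rows and 3.81% of located rows. Between PMSG-treated ESR1KO and ESR1KO 0 of the 8 genes were called, 4 were at an unadjusted p under 0.05 (Adamts3, Adamts8, Mmp9 and Mmp16, all higher in PMSG-treated ESR1KO), 0 were called in the unmoderated model, and 0.100% of located rows were called. The interaction was positive for all 8 genes, with a median of 0.93 against 0.09 over the located rows. In limma and in the unmoderated model 0 of the 8 genes were called for it, and 5 were at an unadjusted p under 0.05. Of located rows 0.651% were called. The shares of located rows at an unadjusted p under 0.05, or with a positive interaction, were not counted. The genes were selected on these arrays, so nothing is read from these counts.

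Over the 12 arrays the 8 genes did not form 1 pattern. Pearson's r was 0.92 between Adamts15 and Adamts16 and 0.91 between Adamts16 and Mmp16. Adamts4 was negative with each of the others, at -0.90 with Adamts16 and -0.19 with Mmp9. Mmp9 followed the other 6 more loosely, at 0.39 to 0.66. The arrays share the group differences, so these coefficients are a description only. By the same measure, of 1820 other genes those nearest to Adamts16 were Anxa9 (0.99) and Peg3 (0.98), to Adamts15 Matn2 and Rspo1 (0.98 each), to Adamts8 Lamb2 and Lrrk1 (0.96 each) and to Adamts3 Ndn (0.97) and Gldc (0.95). Nearest to Adamts4 were Prkce and Mmd (0.97 each), to Mmp10 Nsg2 (0.99) and 9930023K05Rik (0.98), to Mmp16 Ror1 (0.96) and Fmod (0.95), and to Mmp9 Npnt (0.94) and Fam198b (0.93).

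Of the other members of both families, 6 could be followed in all arrays. Mmp7, or matrilysin, an epithelial MMP, read 8.08, 9.01 and 8.73 in PMSG-treated ESR1KO oviducts, 7.21, 7.85 and 5.99 in PMSG-treated WT, 8.40, 8.20 and 8.98 in ESR1KO and 5.35, 4.85 and 4.66 in WT oviducts. It was called between ESR1KO and WT, 11.9-fold higher at a log2 difference of 3.57 (SE 0.44), and not between PMSG-treated ESR1KO and PMSG-treated WT, at 1.59 (SE 0.46). The difference of PMSG-treated WT from WT was 2.06 (SE 0.46) for Mmp7 and -2.15 (SE 0.49) for Mmp10. Both genes lie in 1 cluster on chromosome 9 with 181.8 kb and 5 annotated genes between them. Neither of these PMSG differences was called. Mmp23, a membrane-bound MMP, was the other call, 2.69-fold higher at 10.23, 10.45 and 10.36 in PMSG-treated ESR1KO, against 8.52, 8.71 and 9.53 in PMSG-treated WT oviducts.

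Adamts1 and Adamts9, which cut versican, and Mmp17 and Mmp19 were not called in either genotype comparison. Adamts1 was nearest to a call, at 10.96, 10.60 and 10.76 in ESR1KO and 9.37, 10.04 and 9.82 in WT oviducts, with a log2 difference of 1.03 (SE 0.24) and an upper bound of 0.0986 for the adjusted p. Among PMSG-treated mice Adamts9 was lower in ESR1KO at an adjusted p of 0.0291, but by 1.48-fold, under the minimum for a call. Mmp17, a membrane-anchored MMP, was lower in ESR1KO (3.92, 3.61 and 3.78) than in WT oviducts (4.93, 5.28 and 4.81), where the ESR1KO signals were near background. Among the other located metzincins, the enzyme superfamily to which ADAMTS proteins and MMPs belong, 1 of 3 was called between PMSG-treated ESR1KO and PMSG-treated WT and 2 of 3 between ESR1KO and WT, each higher in the knockout, against 28.3% and 9.11% of located rows called higher. Pappa2, which releases insulin-like growth factors by cutting a binding protein, was called in both comparisons, at 7.12-fold and 4.77-fold higher.

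**Figure D3:**
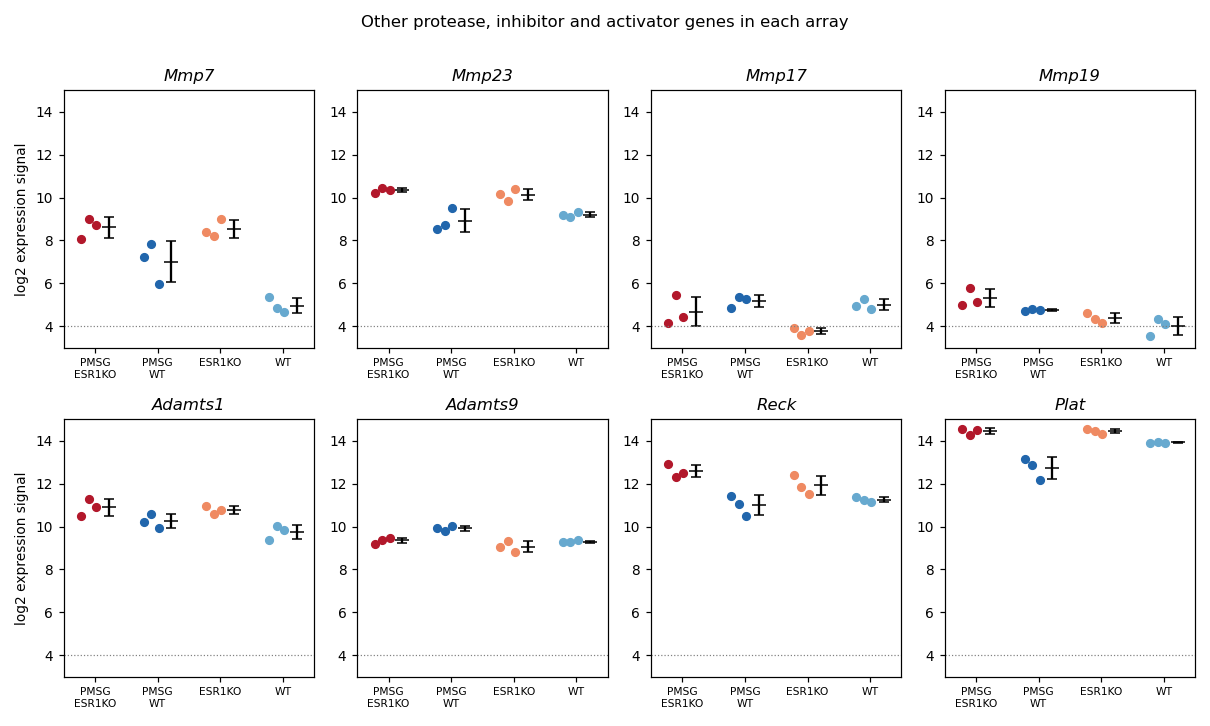
Log2 expression signal of other MMP and ADAMTS genes, the inhibitor Reck and the plasminogen activator Plat in each array, drawn as for the 8 genes, with the groups in the order PMSG-treated ESR1KO, PMSG-treated WT, ESR1KO and WT and bars for the mean and SD. Mmp7 lies between 4.66 and 5.35 in WT oviducts and at 8.20 or above in ESR1KO oviducts, while Reck and Plat differ mainly between PMSG-treated ESR1KO and PMSG-treated WT.

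Of the inhibitors only Reck could be followed, and the Timp genes sort after the end of the part of the list used here. Reck, a membrane-bound protein that blocks MMP2, MMP9 and MMP14, read 12.90, 12.33 and 12.51 in PMSG-treated ESR1KO oviducts, 11.43, 11.04 and 10.50 in PMSG-treated WT, 12.40, 11.83 and 11.52 in ESR1KO and 11.37, 11.23 and 11.14 in WT oviducts. It was called 3.01-fold higher in PMSG-treated ESR1KO than PMSG-treated WT oviducts and was not called between ESR1KO and WT, at a log2 difference of 0.67 (SE 0.26). Of the upstream proteases, 2 of 3 located were called higher and 1 lower in ESR1KO among PMSG-treated mice. In that comparison 28.3% of located rows were called higher and 20.0% lower. Plat, the tissue plasminogen activator whose product plasmin activates MMP precursors, was 3.27-fold higher, at 14.54, 14.28 and 14.51 in PMSG-treated ESR1KO, against 13.16, 12.88 and 12.16 in PMSG-treated WT oviducts. Pcsk5, a convertase that cuts protease precursors, was called higher at 3.92, 3.88 and 4.31 in PMSG-treated ESR1KO against 3.01, 2.92 and 2.53 in PMSG-treated WT oviducts, all near background, so that its fold is uncertain. Klk1, tissue kallikrein, was 8.30-fold lower.

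Matrix genes were called in both directions. Of 13 located substrate and matrix genes, 5 were called higher and 3 lower in ESR1KO among PMSG-treated mice, and 1 higher and 3 lower in ESR1KO among untreated mice. The shares of located rows called were 28.3% higher and 20.0% lower with PMSG and 9.11% higher and 9.01% lower without. Fmod, which encodes fibromodulin of collagen fibrils, was called higher in both, at 12.8-fold with PMSG and 7.35-fold without. Fn1, which encodes fibronectin, a substrate of ADAMTS16, was called lower in both, at 6.53-fold with PMSG and 6.68-fold without. Fn1 read 9.79, 11.79 and 9.92 in ESR1KO and 13.03, 13.36 and 13.33 in WT oviducts, and ESR1KO replicate 2 was again the array nearest to WT. Fbln2, which encodes fibulin 2 of elastic fibers and basement membranes, was 5.96-fold lower in ESR1KO among PMSG-treated mice, and among WT mice it was called 10.7-fold higher with PMSG than without. Fbln1, encoding fibulin 1, was 5.22-fold higher in ESR1KO among PMSG-treated mice.

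Levels of the whole families could be read only in untreated ESR1KO oviducts, where rows follow the probe set names. There 11 of 16 other ADAMTS and ADAMTS-like genes on the array, 8 of 15 other MMP genes and 8 of 10 inhibitors had a mean signal of at least 4 for their highest probe set. Mmp14 (11.31, 10.87 and 11.03), Mmp2 (10.03, 9.67 and 9.63) and Timp2 (12.96, 12.88 and 13.39) were among those above it, and Mmp3 (2.42, 2.29 and 2.25), Mmp12 (2.30, 2.23 and 2.18) and Adamts7 (2.28, 2.24 and 2.12) among those below. Mmp8, the neutrophil collagenase, read 9.81, 9.86 and 10.37. Of the 8 genes described, 5 had more than 1 probe set. The second probe set of Mmp9 read 1.68, 1.63 and 1.66, that of Adamts16 1.93, 1.87 and 1.88 and that of Adamts3 1.97, 1.90 and 1.89, all near background, so that the values given above for these genes rest on 1 probe set each. The second probe set of Adamts4 read 4.89, 4.69 and 2.49, and the other 3 of Mmp16 had means of 3.12, 3.71 and 5.15. None of these could be read in the other groups.

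**Figure D4:**
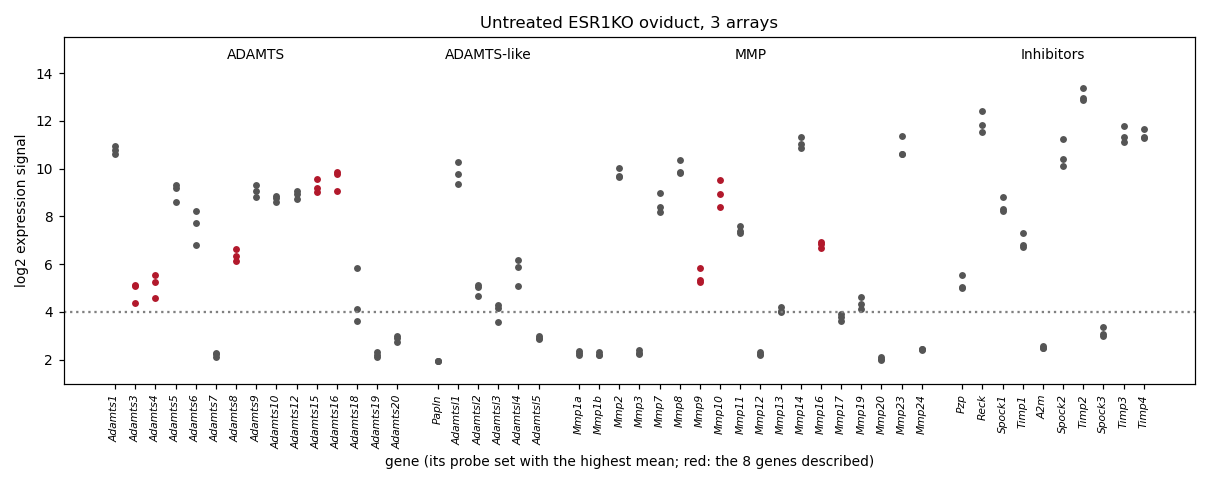
Log2 expression signal of ADAMTS, ADAMTS-like, MMP and inhibitor genes in the 3 untreated ESR1KO arrays, shown as points for the probe set of each gene with the highest mean, with the 8 genes described in red and a dotted line at a signal of 4. All 8 genes lie above the line, as do Mmp14 and Timp2, while Mmp3 and Mmp12 lie below it, and levels of different genes cannot be ranked because each comes from its own probes.

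Located markers of leukocytes differed between the same groups. A marker could be located only through the study's list of changed genes, so a difference was selected for. Of all located rows, 93.1% had non-overlapping arrays between PMSG-treated ESR1KO and PMSG-treated WT and 78.5% between ESR1KO and WT. Of 11 neutrophil markers 3 were located, S100a8, S100a9 and Ltf, and their summed linear signal ranged from 16472 to 20124 in PMSG-treated ESR1KO oviducts, 4057 to 7130 in PMSG-treated WT, 14791 to 23544 in ESR1KO and 5523 to 8651 in WT oviducts. Most of that sum is Ltf, lactoferrin, which epithelium also makes. S100a8 and S100a9 encode the calprotectin subunits that neutrophils hold in large amounts. S100a8 read 6.55, 8.57 and 9.17 in PMSG-treated ESR1KO oviducts, 4.44, 3.82 and 2.90 in PMSG-treated WT, 6.76, 7.87 and 6.36 in ESR1KO and 3.10, 4.42 and 2.75 in WT oviducts, and was called higher in both genotype comparisons. S100a9 read 4.65, 7.90 and 8.21 in PMSG-treated ESR1KO oviducts, 3.18, 2.36 and 2.74 in PMSG-treated WT, 5.11, 6.26 and 5.83 in ESR1KO and 2.96, 3.67 and 2.77 in WT oviducts. It was called higher in ESR1KO among PMSG-treated mice. Without PMSG it was 6.06-fold higher in ESR1KO and not called, at an upper bound of 0.298 for the adjusted p in limma. Several WT signals were under 4, so the folds are uncertain. Neither gene had an ESR1KO array of either treatment within the range of the WT arrays. In untreated ESR1KO oviducts the defining neutrophil markers Mpo (2.20), Elane (2.12), Ngp (2.24) and Camp (2.95) were near background, as were 6 of the 9 neutrophil markers on the array, and these could not be read in the other groups. The 4 located of 10 macrophage markers (Csf1r, Cd163, Mrc1 and Lyz2) summed to 5848 to 7983 in PMSG-treated ESR1KO oviducts, 1838 to 3056 in PMSG-treated WT, 3691 to 4757 in ESR1KO and 2035 to 2761 in WT oviducts. Mmp9, whose product these cells also make, was lower in ESR1KO than in WT while both sums were higher in ESR1KO. Its mean was highest in PMSG-treated ESR1KO (6.37) and next in WT (6.14), and the arrays of these groups overlapped. The macrophage sum was also highest in PMSG-treated ESR1KO, without overlap with WT. The part of such cells in the protease signals was not tested.

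Located markers of other tissue components, selected in the same way, differed as well. Actg2, the 1 located of 7 smooth muscle markers, ranged from 980 to 3784 on the linear scale in PMSG-treated ESR1KO oviducts, 5474 to 6997 in PMSG-treated WT, 587 to 1468 in ESR1KO and 3513 to 6161 in WT oviducts. Muc1, the 1 located of 7 secretory markers, ranged from 1176 to 1673 in PMSG-treated ESR1KO oviducts, 177 to 397 in PMSG-treated WT, 1252 to 2740 in ESR1KO and 555 to 699 in WT oviducts. The 3 located of 6 endothelial markers (Pecam1, Kdr and Emcn) summed to 608 to 739 in PMSG-treated ESR1KO oviducts, 805 to 1008 in PMSG-treated WT, 256 to 484 in ESR1KO and 927 to 1244 in WT oviducts. Pecam1 was called lower in ESR1KO in both genotype comparisons, by 2.40-fold among PMSG-treated and 9.45-fold among untreated mice. Emcn was called 2.97-fold lower in ESR1KO than in WT only, and Kdr was called in neither. The 3 located of 7 stromal markers (Pdgfra, Col1a2 and Lum) summed to 14045 to 16016 in PMSG-treated ESR1KO oviducts, 7517 to 9530 in PMSG-treated WT, 8439 to 13633 in ESR1KO and 8155 to 9809 in WT oviducts, and they differed in direction. Pdgfra was called higher in ESR1KO, by 2.81-fold among PMSG-treated and 2.18-fold among untreated mice, and Lum was called lower, by 4.30-fold and 5.43-fold. Col1a2 was called 5.05-fold lower in ESR1KO than in WT at a probe set with a mean of 4.41 in ESR1KO, where its other probe sets read 13.33 and 14.01. The order of Muc1, with ESR1KO and PMSG-treated ESR1KO overlapping, WT next and PMSG-treated WT lowest, was that of Adamts15 and Mmp10. Plat, Matn2 and Fbln1, named after their values were seen, had the same order. The cells that express them were not identified in these pooled oviducts. The share of tissue composition in the signals of Adamts15 and Mmp10 was not tested.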

How the data were processed

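The deposited values are log2 expression signals that the authors made in Partek Genomics Suite 6.6 (GC-RMA, quantile normalization, median polish) from 12 arrays, 3 per group. The table has 45101 rows, whose probe set names apply to the untreated ESR1KO columns alone; the order of the remaining columns differs. Rows were therefore located with the folds and p-values printed in the held 1997 rows of the study's list of changed genes, used as a key only. Matches lay within 8.76e-05 on the log2 scale, p-values recomputed within 0.298%, and symbols, which were not used to match, were equal for 1821 of 1827 rows. Several candidates remained for 29 rows, and 1 for each of the 8 genes.

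Using limma 3.58.1 (R 4.3.3; lmFit and eBayes with trend), both contrasts without untreated ESR1KO were fitted on all rows of 9 arrays, with Benjamini-Hochberg adjustment. Contrasts with untreated ESR1KO were fitted on located rows of 12 arrays with the prior of that fit (2.87 degrees of freedom), adjusted as for 45101 tests, which gives an upper bound of the adjusted p. Both steps were tested on simulated data. The number of arrays limits the precision. Each p-value sets a difference against the spread between pools of mice, not between single mice.

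The 8 genes and all lists were chosen with earlier results of these data known. Named beside them were located MMP and ADAMTS genes, up to 4 located genes of each other list by the size of the difference with PMSG, and the 2 nearest genes of each. Examples in untreated ESR1KO were chosen after their values were seen. Alternatives changed the variance trend, the moderation, the signal minimum (4), the normalization, the replicate block, the fold minimum and the arrays fitted, including each array left out. The unmoderated model used the 9 arrays for contrasts without untreated ESR1KO and all 12 for the others.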

Additional observations from a re-analysis of the deposited data

Results flagged for a closer look

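The PMSG difference of Mmp9 had opposite signs in the genotypes, although neither difference was called: every PMSG-treated ESR1KO array was above every ESR1KO array, and every PMSG-treated WT array was below every WT array. Without PMSG-treated WT replicate 3, which held the lowest Mmp9 value, the difference of PMSG-treated WT from WT was -0.997 instead of -1.26. With all arrays the interaction was 2.14 on the log2 scale, at an unadjusted p of 0.00013 and an upper bound of 0.145 for the adjusted p in limma. It rests on 1 probe set, PMSG and age cannot be told apart, and its cause was not tested.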

How the results depend on the processing

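Of 664 values of single genes under the alternatives, 641 kept their direction and side of the threshold, 20 lost a call, 2 gained one and 1 turned: Adamts16 in PMSG-treated ESR1KO against ESR1KO was -0.093 without ESR1KO replicate 2, in a range of -0.093 to 0.29 with single arrays left out. Genes called between PMSG-treated ESR1KO and PMSG-treated WT numbered 7 with only the 6 arrays compared (Mmp9 lost, adjusted p = 0.0542) and 6 to 8 with single arrays left out; without PMSG-treated ESR1KO replicate 3, Adamts4 (adjusted p = 0.0583) and Mmp9 (0.0551) were lost. Between PMSG-treated WT and WT the range was 0 to 1, the 1 being Mmp10 without PMSG-treated WT replicate 3. Between ESR1KO and WT, 3 genes were called, 1 in the unmoderated model, 1 with only the 6 arrays compared and 1 to 4 with single arrays left out. The 1 was Adamts16 without ESR1KO replicate 3 or WT replicate 2, and the 4 included Adamts15 without PMSG-treated WT replicate 3. Counts for PMSG-treated ESR1KO against ESR1KO and for the interaction stayed at 0. The deviations of same-numbered arrays correlated at -0.11 to 0.26, and whether the replicate numbers mark paired arrays was not tested. With the replicate block 8, 0, 3, 0 and 0 genes were called, as without it. Over all rows, calls between PMSG-treated ESR1KO and PMSG-treated WT numbered 2022, and 1248 to 2422 with single arrays left out, 1255 in the unmoderated model and 1313 with 6 arrays. Those between PMSG-treated WT and WT numbered 113, with 346 on leaving out PMSG-treated WT replicate 3, 19 in the unmoderated model, 46 under the block, 36 with 6 arrays and 179 at a mean signal of at least 4.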
